A study of Mus musculus with 4 samples.

Results

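Apoe, Apoc1, Apoc2 and Apoc4 encode apolipoproteins and lie side by side on mouse chromosome 7. These 4 genes, of 23337 gene names in the deposited tables, were followed through RNA-seq libraries of sorted liver macrophages. They were chosen from their TPM (a transcript level corrected for gene length and scaled to 1000000 per library) in YFP+ against YFP- libraries, so that difference is given below as a description with no test. The mice carried Lyz2cre-RosaYFP, in which the lysozyme gene Lyz2 drives the recombinase Cre and Cre in turn frees yellow fluorescent protein (YFP) from its block in the Rosa gene. Lyz2 is active in myeloid cells at large, so YFP marks any sorted cell that has expressed Cre or descends from one that did. All groups share this Lyz2cre-RosaYFP background, the liver as source, an age of 6 to 8 weeks and a sort for Kupffer cells, the resident macrophages of liver sinusoids. They comprise 2 YFP+ libraries and 2 YFP- libraries, and in each group one title begins with M and the other with FM, whose meaning the labels leave unstated. The labels enter YFP+ and YFP- as genotype. That entry does not tell whether the groups are sorted cell fractions or different animals. Animals of both sexes were used. Whether a library came from one animal or a pool is not given, so any p-value here measures only the spread between these 4 libraries, which may be technical.

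Apolipoproteins coat lipoprotein particles and decide where their lipids go. Apoe is the ligand by which remnant particles bind their uptake receptors on liver cells, and macrophages also secrete it together with cholesterol. Apoc1 hinders that receptor binding, Apoc2 is the cofactor that lipoprotein lipase needs to split triglycerides, and Apoc4 is a minor particle component. Hepatocytes make all members of this cluster, and macrophages transcribe it under the liver X receptors (LXR), nuclear receptors that sense oxidised cholesterol. Astrocytes and microglia of the brain also make Apoe.

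In the coordinates of the files (GRCm38) the members lie on the minus strand of chromosome 7 in the order Apoc2 (19671579 to 19676864), Apoc4 (19678094 to 19681416), Apoc1 (19689481 to 19692658) and Apoe (19696244 to 19699166). Gaps of 1229, 8064 and 3585 bases separate them in that order. GENCODE M21 also places a readthrough gene, Gm44805, across Apoc2 and Apoc4, so reads of those 2 genes could be shared with it; Gm44805 was not analysed here. Sequence upstream of the transcription start is printed because Apoe differed from Apoc2 and Apoc4 in level and, in TPM as deposited, in its YFP difference (below). After quantile normalization the YFP difference was 1.61 for Apoe, 1.64 for Apoc2 and 2.05 for Apoc4. After cyclic loess it was 0.66, 1.70 and 2.48, so under these 2 rescalings (below) Apoe did not exceed the other genes. The RefSeq table (GRCm38.p6) held 3 of the 4 members, without Apoc1. Each line reads 5′ to 3′ toward the start site and covers chr7:19699189-19699438 for Apoe, chr7:19681461-19681710 for Apoc4 and chr7:19677942-19678082 for Apoc2, where the stretch overlapping the annotated Apoc4 gene is left off. Capitals mark matches to the motifs searched.
Apoe: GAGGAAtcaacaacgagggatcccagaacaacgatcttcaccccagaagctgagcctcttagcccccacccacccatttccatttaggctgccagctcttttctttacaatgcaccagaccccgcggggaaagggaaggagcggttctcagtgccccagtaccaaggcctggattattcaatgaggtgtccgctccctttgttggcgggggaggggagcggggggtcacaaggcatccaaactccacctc
Apoc4: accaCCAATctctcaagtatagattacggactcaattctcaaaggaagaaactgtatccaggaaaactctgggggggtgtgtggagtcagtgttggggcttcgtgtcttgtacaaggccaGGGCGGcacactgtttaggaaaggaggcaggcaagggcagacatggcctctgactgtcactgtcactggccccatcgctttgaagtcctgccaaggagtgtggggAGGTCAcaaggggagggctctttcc
Apoc2: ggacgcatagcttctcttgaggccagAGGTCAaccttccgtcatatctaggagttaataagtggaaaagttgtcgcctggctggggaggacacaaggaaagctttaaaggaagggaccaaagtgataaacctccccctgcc
The RefSeq start is 22 bases from the 5′ end of the deposited Apoe gene and 44 bases from that of Apoc4, but 1077 bases from that of Apoc2, whose deposited model is shorter. The motifs were TATAAA (bound by the TBP factor), GGGCGG (bound by Sp1), GAGGAA (core of sites for the myeloid factor PU.1), AGGTCA (core of nuclear receptor sites), TGANTCA (bound by AP-1) and CCAAT (bound by NF-Y), on both strands over the 250 bases before each start. No matches overlapped. Apoe held a single match, GAGGAA at position -250, a motif found in 23.3% of 32851 promoter windows of that length. Apoc4 held AGGTCA at -25, GGGCGG at -130 and CCAAT at -246, and Apoc2 held AGGTCA at -115. AGGTCA occurs in 14.0% of all windows, GGGCGG in 32.7% and CCAAT in 33.9%. A match is a run of letters and not a shown binding site.

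Sums of cell type markers are given here for the M and then the FM library, and some but not all of them moved with the YFP groups. Kupffer cell markers, with 8 of 8 at 1 TPM or more in every library, summed to 32703 and 29391 TPM in YFP+ and to 5658 and 13585 TPM in YFP- libraries. The YFP- libraries, labelled as liver macrophages, carried RNA of microglia markers (8 genes), which summed to 570 and 27.8 TPM in YFP+ and to 9840 and 11186 TPM in YFP- libraries. Astrocyte markers (7 genes) summed to 34.7 and 5.73 TPM in YFP+ and to 215 and 188 TPM in YFP- libraries, with Gfap, Aqp4 and S100b listed at 0 in YFP+ FM. Hepatocyte markers (9 genes) summed to 260 and 524 TPM in YFP+ and to 1284 and 2087 TPM in YFP- libraries, with Tat and Cps1 listed at 0 in YFP+ FM. That order rests on Ttr, at 55.5 and 51.9 TPM in YFP+ and 1053 and 830 TPM in YFP- libraries: without it, a look taken after the values were seen, the sums were 205 and 473 TPM in YFP+ and 231 and 1257 TPM in YFP- libraries, which overlap. For the Kupffer cell, microglia, astrocyte and endothelial sums, leaving out any single marker kept the order of the groups. Single markers did not all follow their sum. Of the Kupffer cell markers, Clec4f, Vsig4, Timd4, Cd5l, Marco and Folr2 were each higher in both YFP+ libraries than in either YFP- library. Adgre1 and C6 overlapped, with means of 757 and 226 TPM in YFP+ against 1134 and 386 TPM in YFP- libraries. Endothelial markers, listed for liver sinusoids (7 genes), summed to 195 and 96.2 TPM in YFP+ and to 482 and 538 TPM in YFP- libraries. Of these, Oit3, Lyve1, Kdr, Pecam1 and Ptprb were lower in both YFP+ libraries. Stab2 (50.5 and 22.6 TPM in YFP+, 12.7 and 91.8 TPM in YFP- libraries) and Clec4g (109 and 61.2 TPM in YFP+, 279 and 74.4 TPM in YFP- libraries) overlapped. Monocyte and neutrophil markers (6 genes) summed to 1456 and 6634 TPM in YFP+ and to 1858 and 2884 TPM in YFP- libraries, which overlap. Of these, Ly6c2 (109 and 136 TPM in YFP+, 513 and 252 TPM in YFP- libraries) was lower in both YFP+ libraries. So were Ccr2 (3.26 and 0.839 TPM in YFP+, 18.1 and 59.6 TPM in YFP- libraries) and Chil3. S100a8 (385 and 1542 TPM in YFP+, 399 and 717 TPM in YFP- libraries) overlapped. S100a9 (772 and 4874 TPM in YFP+, 815 and 1595 TPM in YFP- libraries) overlapped too. Lyz2, whose locus drives Cre, ranged from 50.5 to 143 TPM in YFP+ and from 26.4 to 58.1 TPM in YFP- libraries. Coverage at 1 FPKM was 2.60 to 4.81 in YFP+ and 2.59 to 9.19 in YFP- libraries, and no read counts are given, so depth in reads is unknown. Genes at 1 TPM or more numbered 10302 and 7386 in YFP+ M and FM, against 12434 and 12829 in YFP- M and FM. The 100 most abundant genes held 54.0% and 66.1% of TPM in YFP+ M and FM, against 40.9% and 29.7% in YFP- M and FM. The part of this in the differences below was not tested. The median difference of 12251 tested genes was -1.73 on the log2(TPM + 1) scale (YFP+ minus YFP-), and limma with Benjamini-Hochberg adjustment called 0.522% of them higher and 39.5% lower in YFP+ libraries at an adjusted p under 0.05. The shares higher and lower were 1.21% and 1.67% under quantile normalization, 6.2% and 6.45% under median-ratio scaling, 0.531% and 0.327% under cyclic loess, and 0.188% and 14.1% with the title start as a replicate block. All 4 members passed the filter of at least 1 TPM in at least 2 libraries.

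**Figure D1:**
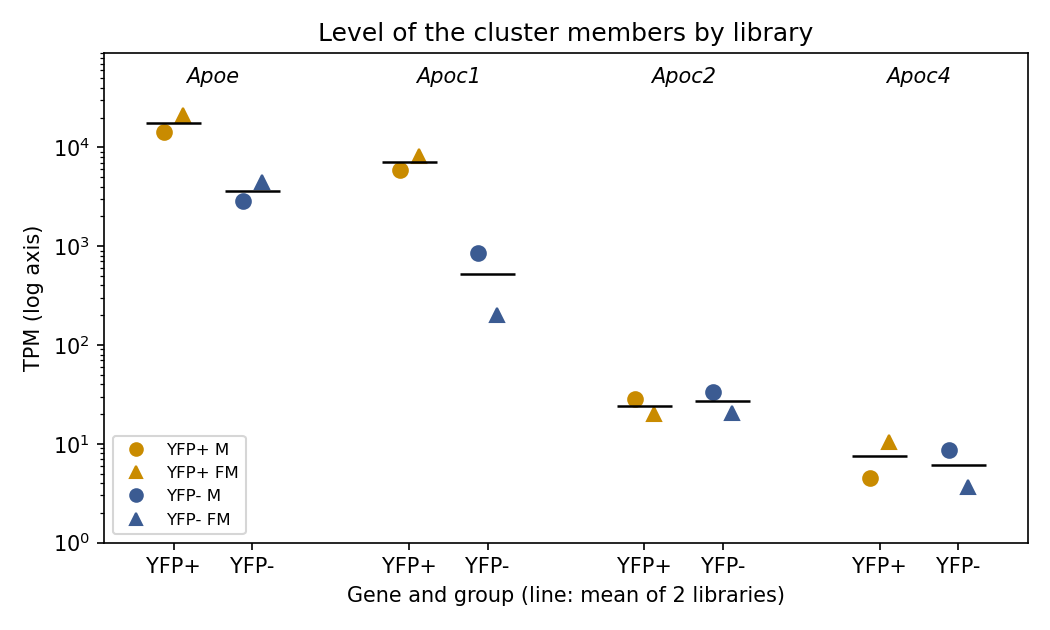
TPM of the 4 members on a log axis, with one point per library and a line at the mean of each group of 2. Apoe and Apoc1 do not overlap between YFP+ and YFP- libraries, while Apoc2 and Apoc4 do, and Apoc2 and Apoc4 lie far below the other pair in every library.

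Apoe was the most abundant member in every library. It stood at 14203 TPM in YFP+ M and 21082 TPM in YFP+ FM, against 2846 TPM in YFP- M and 4417 TPM in YFP- FM. It was the 4th most abundant transcript in both YFP+ libraries, against ranks 57 in YFP- M and 21 in YFP- FM. Both YFP+ libraries lay above both YFP- libraries, and libraries of one group differed by no more than 1.55-fold. The means were 17642 ± 4864 TPM in YFP+ and 3631 ± 1111 TPM in YFP- libraries (SD, n = 2 each), a ratio of 4.86. The log2(TPM + 1) difference was 2.29 with a moderated SE of 0.57, a value above 99.7% of tested genes. The M pair of libraries gave 2.32 and the FM pair 2.25. A single transcript thus made up 1.42% and 2.11% of all TPM in YFP+ libraries and 0.285% and 0.442% in YFP- libraries.

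Apoc1 had the larger difference and the wider spread. It stood at 5961 TPM in YFP+ M and 8236 TPM in YFP+ FM, against 847 TPM in YFP- M and 202 TPM in YFP- FM. The groups did not overlap, but the YFP- libraries lay much further from each other than the YFP+ libraries, which differed 1.38-fold. The means were 7098 ± 1608 TPM in YFP+ and 524 ± 456 TPM in YFP- libraries (SD, n = 2 each), a ratio of 13.5. The log2 difference was 4.08 (SE 0.69), with 2.81 in the M pair and 5.35 in the FM pair. Without YFP- FM it was 3.05, and without YFP- M 5.11.

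Apoc2, the cofactor of lipoprotein lipase, was present at a small fraction of those levels in every library. It stood at 28.6 TPM in YFP+ M and 19.9 TPM in YFP+ FM, against 33.6 TPM in YFP- M and 20.4 TPM in YFP- FM. The groups overlapped, with means of 24.3 ± 6.11 TPM in YFP+ and 27.0 ± 9.32 TPM in YFP- libraries (SD, n = 2 each). Its log2 difference was -0.13 (SE 1.08), with -0.23 in the M pair and -0.03 in the FM pair.

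Apoc4 was the lowest member everywhere. It stood at 4.54 TPM in YFP+ M and 10.4 TPM in YFP+ FM, against 8.61 TPM in YFP- M and 3.63 TPM in YFP- FM. The highest and second lowest values both belong to YFP+ libraries, so the groups overlapped, with means of 7.49 ± 4.17 TPM in YFP+ and 6.12 ± 3.52 TPM in YFP- libraries (SD, n = 2 each). Its log2 difference was 0.25 (SE 1.09), but -0.79 in the M pair and 1.30 in the FM pair. Thus 2 of the 4 members were higher in YFP+ libraries without overlap, as were 2.5% of all tested genes; nothing is read from this share, since the same values chose the members.

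The order Apoe, Apoc1, Apoc2, Apoc4 held in all 4 libraries on the TPM scale. Within each group the ranges of neighbours in that order did not overlap. Apoc1 was 209 and 413 times as abundant as Apoc2 in YFP+ M and FM, against 25.2 and 9.86 times in YFP- M and FM. Apoc2 exceeded Apoc4 by 1.91 to 6.29 times in YFP+ libraries and by 3.91 to 5.62 times in YFP- libraries. Ratios of 2 genes within one library do not change when all its TPM values are multiplied by one factor. The ratio of Apoe to Apoc1 was 2.38 in YFP+ M and 2.56 in YFP+ FM, against 3.36 in YFP- M and 21.9 in YFP- FM. Apoc1 thus took 29.5% and 28.1% of the cluster's summed TPM in YFP+ M and FM, against 22.7% in YFP- M and 4.34% in YFP- FM. The YFP- FM library stands apart here. Together the 4 genes gave 20197 and 29348 TPM in YFP+ M and FM, against 3735 and 4643 TPM in YFP- M and FM.

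Since a typical gene lay 1.73 log2 units lower in YFP+ libraries, the members' differences depend on what the libraries are scaled to. Relative to the median of all tested genes, Apoe stood 4.02, Apoc1 5.81, Apoc2 1.60 and Apoc4 1.99 log2 units higher in YFP+ than in YFP- libraries. Quantile normalization, which gives all libraries one distribution, put the differences at 1.61 for Apoe, 4.03 for Apoc1, 1.64 for Apoc2 and 2.05 for Apoc4. Median-ratio scaling put them at 4.56, 6.35, 2.04 and 2.16 for the same genes in that order. Cyclic loess, which levels differences as a function of abundance, put them at 0.66, 3.36, 1.70 and 2.48, and Apoe then exceeded 77.2% of tested genes. Apoc1 was the member with the highest difference and was higher in YFP+ libraries under each of these settings. For Apoc2 and Apoc4 the size of the difference rests on the scaling, and for Apoc2 its sign does too. Near 0 as deposited, both were higher in YFP+ libraries after any of these 3 rescalings.

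**Figure D2:**
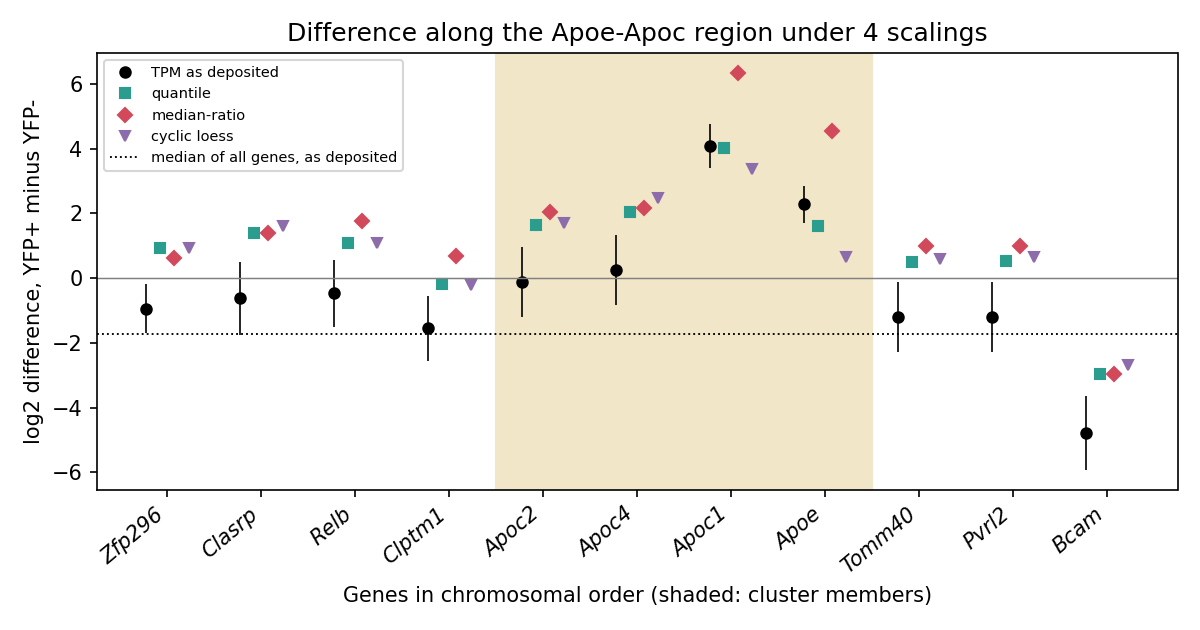
Log2 difference (YFP+ minus YFP-) of the 4 members, shaded, and the 7 tested flanking genes in chromosomal order, under 4 scalings, with bars of 1 SE for TPM as deposited. Apoc1 is the highest point of the region under every scaling, Apoc2 and Apoc4 lie near 0 only as deposited, and Bcam is below 0 throughout.

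The levels of Apoe and Apoc1 can also be set against the cell type markers of their own library. Apoe amounted to 0.434 and 0.717 of the summed Kupffer cell marker TPM in YFP+ M and FM, against 0.503 and 0.325 in YFP- M and FM, so on this measure the groups overlapped. Apoc1 amounted to 0.182 and 0.280 of that sum in YFP+ M and FM, against 0.150 in YFP- M and 0.0148 in YFP- FM, without overlap. Apoe and the Kupffer marker sum were both higher in each YFP+ library than in either YFP- library. The microglia, astrocyte and endothelial sums were lower in both YFP+ libraries than in either YFP- library. The hepatocyte sum was lower too, but overlapped without Ttr. The part of these cells in the members' levels was not tested. In bulk RNA, fewer cells of a type and less of a transcript per cell cannot be told apart.

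**Figure D3:**
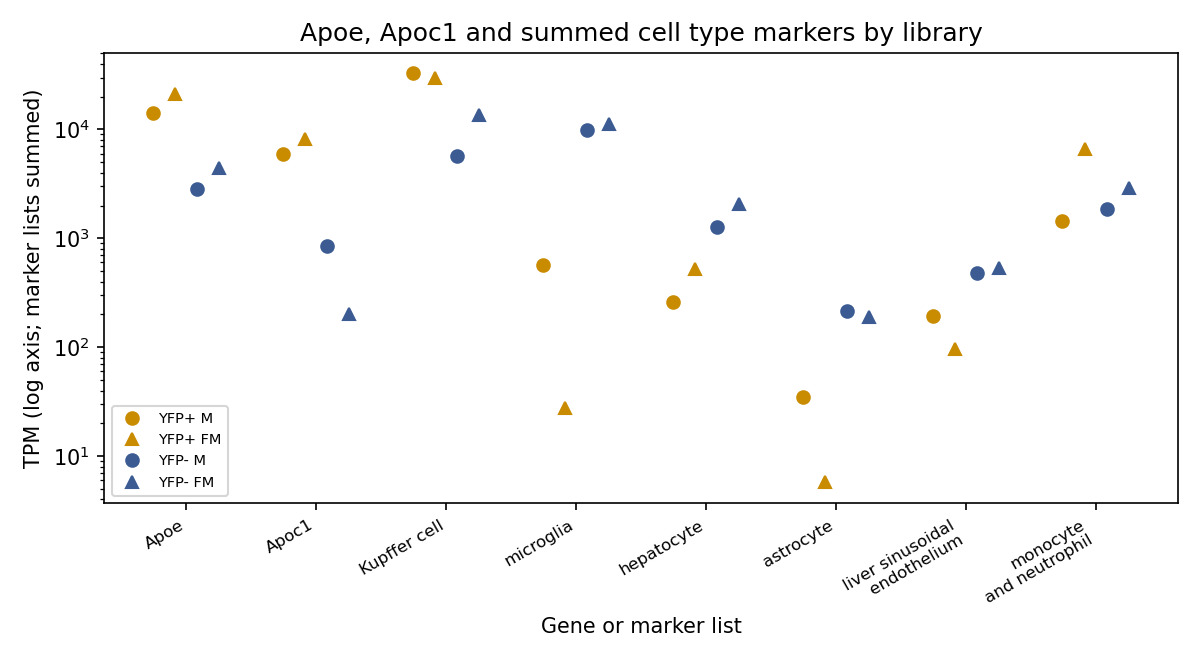
TPM of Apoe and Apoc1 and the summed TPM of 6 marker lists on a log axis, with one point per library. Apoe, Apoc1 and the Kupffer cell sum are higher in both YFP+ libraries, while the microglia sum is 570 and 27.8 TPM in YFP+ libraries against 9840 and 11186 TPM in YFP- libraries.

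The comparison of FM with M titled libraries was not used to choose the members, so they could be tested in it. In a limma model with the YFP group as covariate, none of the 4 members passed, with an adjusted p = 1 for each of them, while 6 of 12251 genes did (0.049%). Apoe averaged 12749 TPM in FM and 8524 TPM in M libraries, with a log2 difference of 0.60 (SE 0.75, unadjusted p = 0.425 in limma). Apoc1 had a log2 difference of -0.80 (SE 0.88) and averaged 4219 TPM in FM and 3404 TPM in M libraries; the mean and the log scale differ in sign because its YFP- libraries ran against its YFP+ libraries. Apoc2 averaged 20.2 TPM in FM and 31.1 TPM in M libraries (-0.59, SE 1.43), and Apoc4 averaged 7.04 TPM in FM and 6.58 TPM in M libraries (-0.00, SE 1.52). The intervals around these differences are wide, so a sizeable difference between title starts could go undetected.

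Genes that flank the cluster within 100 kb were not called higher in YFP+ libraries. Of 8 such genes 7 were tested, Cblc being below the filter; 0 were called higher and 1 was called lower in YFP+ libraries by limma (0.522% and 39.5% of all genes), with 0 higher and 1 lower at an unadjusted p under 0.05. Their median difference was -1.19, against -1.73 for all tested genes. Tomm40, a pore subunit of the mitochondrial import machinery and the next gene beyond Apoe at 2146 bases, was at 18.2 and 17.9 TPM in YFP+ M and FM, against 29.4 and 61.7 TPM in YFP- M and FM. All YFP+ values were lower, but the difference did not pass (-1.20, SE 1.07, adjusted p = 0.333). On the other side, Clptm1 lies 6548 bases beyond Apoc2 and was at 43.0 and 28.3 TPM in YFP+ M and FM, against 59.9 and 179.7 TPM in YFP- M and FM (-1.55, adjusted p = 0.183). Bcam, the Lutheran adhesion molecule of laminin, was the 1 gene that fell, at 2.91 and 0.791 TPM in YFP+ M and FM, against 58.0 and 88.6 TPM in YFP- M and FM (-4.78, SE 1.14, adjusted p = 0.000621). It also passed under quantile normalization (adjusted p = 0.0311), median-ratio scaling (0.00275) and loess (0.0464), but not without YFP- M (0.108) or YFP- FM (0.239). The NF-kB subunit Relb (-0.47, adjusted p = 0.699), the adhesion gene Pvrl2 (-1.19, adjusted p = 0.340), Clasrp (-0.62, adjusted p = 0.639) and Zfp296 (-0.94, adjusted p = 0.286) did not pass. The difference between members and flanking genes was itself not tested, the members having been chosen for theirs.

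Of 10 tested among 12 apolipoprotein genes elsewhere in the genome, 0 rose and 2 fell in YFP+ libraries, against 0.522% and 39.5% of all genes, and the median difference was -0.41. Apod, a lipocalin that carries small hydrophobic ligands, was at 2.34 and 0.0766 TPM in YFP+ M and FM, against 44.8 and 34.7 TPM in YFP- M and FM (-4.42, SE 1.13, adjusted p = 0.00131). Clu, the chaperone clusterin or apolipoprotein J, was at 13.4 and 14.9 TPM in YFP+ M and FM, against 182 and 220.0 TPM in YFP- M and FM (-3.73, SE 1.01, adjusted p = 0.00227). Both genes are also made by astrocytes or other brain cells, whose marker sum was higher in YFP- libraries, and the part of this in their values was not tested. Apoa1, the main protein of HDL and a hepatocyte product, did not pass at 101 ± 73.8 TPM in YFP+ and 46.3 ± 2.25 TPM in YFP- libraries (0.89, adjusted p = 0.436), and neither did the lipase inhibitor Apoc3 (-0.91, adjusted p = 0.473). Under median-ratio scaling 2 genes of the list were called higher, Apoa1 (3.12, adjusted p = 0.0134) and Apoa5 (1.83, adjusted p = 0.0366), the second named after its value was seen. Of all genes 6.2% were called higher there. Apod kept its call under quantile normalization (adjusted p = 0.0379) and median-ratio scaling (0.00351) but not loess (0.0661), and Clu lost its call under each of them (0.0721, 0.111 and 0.0967). With YFP- M or YFP- FM left out, neither passed, at -4.24 and -4.59 for Apod (adjusted p = 0.138 and 0.189) and -3.87 and -3.60 for Clu (adjusted p = 0.0754 and 0.144). The group then holds 1 library, which is assumed to vary like the other group, here and in every fit with a library left out.

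Of 8 tested among 10 receptor and chaperone genes for Apoe, 0 rose and 4 fell, against 0.522% and 39.5% of all genes, with a median of -1.85. Trem2, a lipid receptor of microglia and lipid-laden macrophages that binds Apoe, was at 73.5 and 10.3 TPM in YFP+ M and FM, against 1099 and 1090 TPM in YFP- M and FM (-5.24, SE 0.89, adjusted p = 4.85e-06). It was also called under quantile normalization (adjusted p = 0.0311), median-ratio scaling (0.0124) and loess (0.0464). The microglia marker sum was lower in YFP+ libraries too (above), and its part in the Trem2 values was not tested. The lipolysis-stimulated receptor Lsr (-4.55, adjusted p = 0.000909), the Apoe receptor Lrp8 of the brain (-2.75, adjusted p = 0.000937) and the sorting receptor Sorl1 (-2.67, adjusted p = 0.0488) also fell. Lsr passed under quantile normalization (adjusted p = 0.0342) and median-ratio scaling (0.00499) but not loess (0.0529). Lrp8 passed under median-ratio scaling (0.0271) but not quantile normalization (0.172) or loess (0.213), and Sorl1 under none of them (0.401 to 0.710). Lsr did not pass without YFP- M (adjusted p = 0.140) or YFP- FM (0.223), and of the fits with one library left out Sorl1 passed in that without YFP+ M (0.0041) alone. Lrp1, a large endocytic receptor of remnant particles, did not pass, at 77.1 ± 14.6 TPM in YFP+ and 79.0 ± 62.4 TPM in YFP- libraries (0.21, adjusted p = 0.855). The HDL receptor Scarb1 was at 247 ± 55.9 TPM in YFP+ and 188 ± 159 TPM in YFP- libraries (0.69, adjusted p = 0.501). Under median-ratio scaling Lrp1 (adjusted p = 0.0196) and Scarb1 (0.0183) were called higher, as were 6.2% of all genes.

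**Figure D4:**
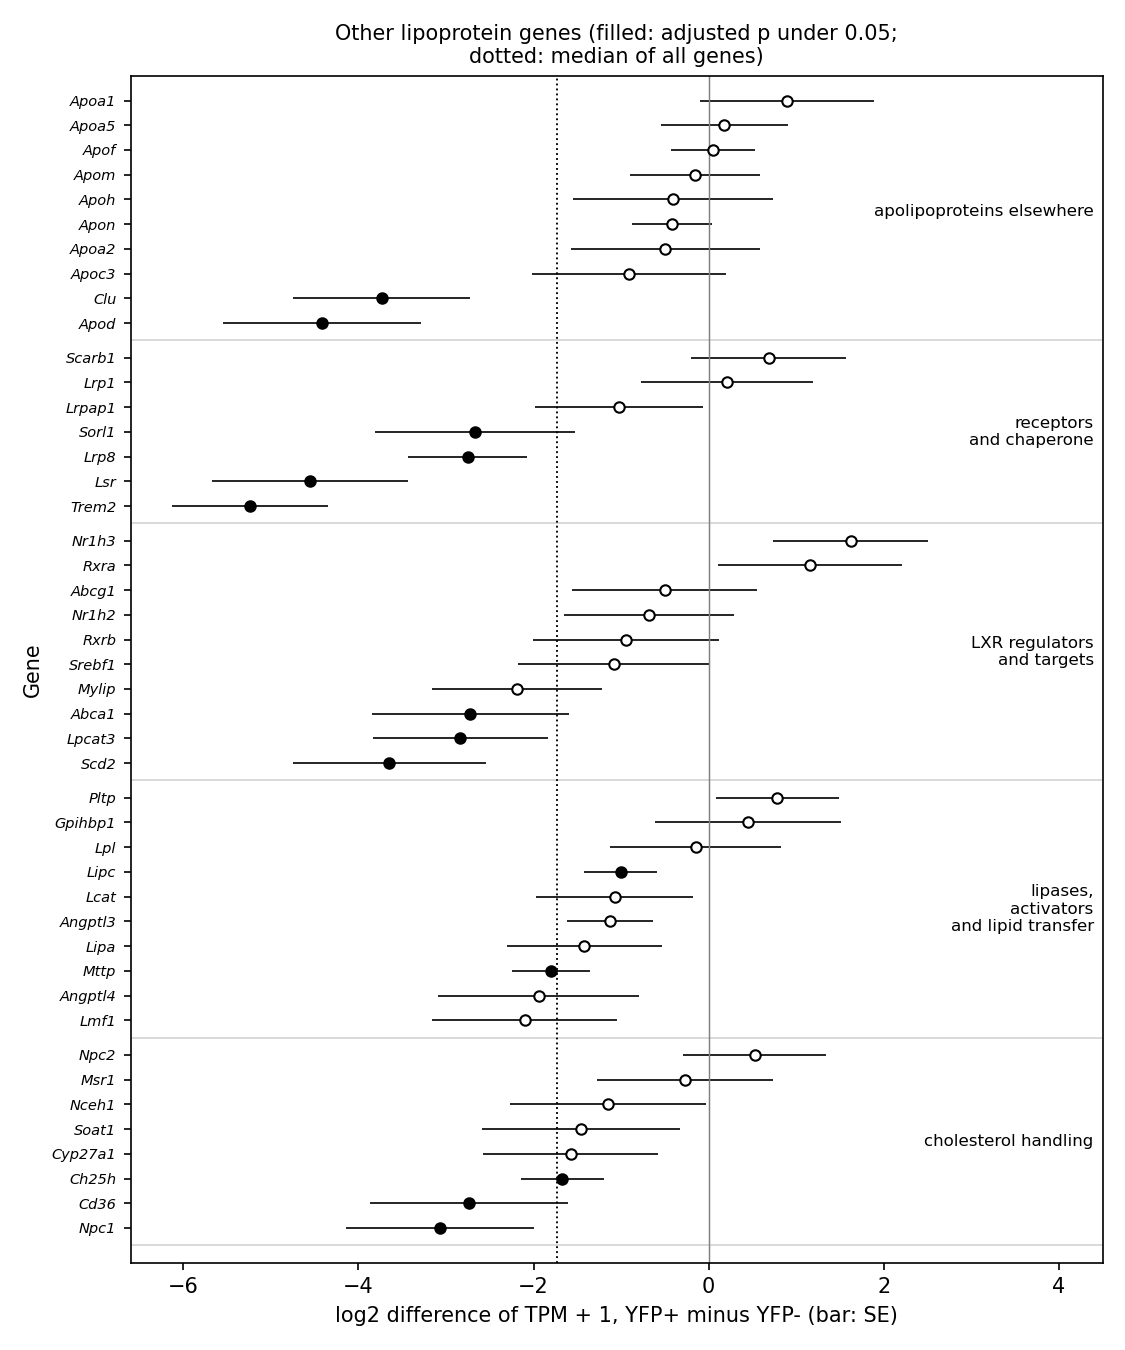
Log2 difference of TPM + 1 (YFP+ minus YFP-) with its SE for 45 of the 46 tested lipoprotein genes in 5 lists, filled where the adjusted p was under 0.05, with the median of all genes dotted. All 14 called genes lie below 0, and Nr1h3 has the highest value plotted.

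Of 10 tested among 11 genes of LXR, its partners and its targets, 0 rose and 3 fell, against 0.522% and 39.5% of all genes, with a median of -1.01. Nr1h3, which encodes LXR alpha, was at 399 and 301 TPM in YFP+ M and FM, against 73.0 and 171 TPM in YFP- M and FM (1.62, SE 0.88, adjusted p = 0.117). Its groups did not overlap, and it passed under median-ratio scaling (adjusted p = 0.00351) but not under quantile normalization (0.0701) or loess (0.111). Rxra, the retinoid partner of LXR, was at 59.8 and 42.2 TPM in YFP+ M and FM, against 12.8 and 37.3 TPM in YFP- M and FM (1.16, adjusted p = 0.342), and passed under quantile normalization (0.0410) and median-ratio scaling (0.00236). Nr1h2, which encodes LXR beta, had a difference of -0.68 (adjusted p = 0.544). Abcg1, named after its value was seen, was also called higher under median-ratio scaling (1.70, adjusted p = 0.0491), as were 6.2% of all genes. Among targets, the lipid desaturase Scd2 (-3.65, adjusted p = 0.00634), the phospholipid enzyme Lpcat3 (-2.84, adjusted p = 0.0189) and the cholesterol exporter Abca1 (-2.72, adjusted p = 0.0416) fell, while Mylip, a ubiquitin ligase for lipoprotein receptors, did not pass (-2.19, adjusted p = 0.0568). Scd2, Lpcat3 and Abca1 lost their calls under all 3 rescalings (adjusted p = 0.0611 to 0.465) and in the block fit (0.0759 to 0.192), and each also lost it with any library but YFP+ M left out (0.0828 to 0.523).

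Among lipases and lipid transfer genes, 0 of 10 tested rose and 2 fell, against 0.522% and 39.5% of all genes, with a median of -1.10. Lpl, lipoprotein lipase and the enzyme that Apoc2 activates, was at 98.7 and 51.9 TPM in YFP+ M and FM, against 53.0 and 119 TPM in YFP- M and FM (-0.15, SE 0.98, adjusted p = 0.899). Like Apoc2, it overlapped between the groups. Under median-ratio scaling Lpl (2.09, adjusted p = 0.0331) and Gpihbp1 (2.63, adjusted p = 0.0116) were called higher, as were 6.2% of all genes. Gpihbp1 was named after its value was seen. Pltp, which moves phospholipids between particles, was at 1933 and 1807 TPM in YFP+ M and FM, against 921 and 1273 TPM in YFP- M and FM (0.79, adjusted p = 0.332). Mttp, which loads lipid onto nascent particles (-1.80, adjusted p = 0.000981), and the hepatic lipase Lipc (-1.01, adjusted p = 0.0431), named after its value was seen, fell, though YFP- levels were low, with at most 4.61 TPM of Mttp and 2.88 TPM of Lipc. Mttp did not pass without YFP+ FM (adjusted p = 0.0826), and of the fits with one library left out Lipc passed in that without YFP+ M (0.0149) alone. Both lost their calls under quantile normalization (adjusted p = 0.399 for Mttp and 0.337 for Lipc), median-ratio scaling (0.0780 and 0.958) and loess (0.551 and 0.459), and Lipc also in the block fit (0.135). Lmf1, a lipase maturation factor (-2.10, adjusted p = 0.0892), the lipase inhibitor Angptl4 (-1.94, adjusted p = 0.146) and the lysosomal lipase Lipa (-1.42, adjusted p = 0.167) did not pass.

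Of 8 genes that handle cholesterol inside macrophages, 0 rose and 3 fell, against 0.522% and 39.5% of all genes, with a median of -1.52. None of the 3 passed under a rescaling (adjusted p = 0.148 to 0.775). Under median-ratio scaling Npc2 (2.79, adjusted p = 0.0475) and Msr1 (1.96, adjusted p = 0.0340) were called higher, as were 6.2% of all genes. Both were named after their values were seen. The lysosomal cholesterol exporter Npc1 was at 18.3 and 3.80 TPM in YFP+ M and FM, against 53.0 and 120 TPM in YFP- M and FM (-3.07, adjusted p = 0.0181). The fatty acid scavenger receptor Cd36 (-2.74, adjusted p = 0.0419) and the oxysterol enzyme Ch25h (-1.67, adjusted p = 0.00389) fell, and Cyp27a1, which also makes oxysterols, did not pass (-1.57, adjusted p = 0.175). Npc1 and Cd36 lost their calls with any library but YFP+ M left out (adjusted p = 0.157 to 0.611), and Ch25h without YFP+ FM (0.154) or YFP- FM (0.105). Over all 5 lists, 0 of 46 tested genes rose and 14 fell by limma at an adjusted p under 0.05, against 0.522% and 39.5% of all genes. At an unadjusted p under 0.05 the counts were 0 and 17. The median was -1.05, or 0.68 above that of all genes. The 14 became 7 with the title start as a replicate block, where 14.1% of all genes were called lower. They became 4 under median-ratio scaling (6.45% of all genes), where 12 were called higher (6.2% of all genes). Under quantile normalization 3 were called lower (1.67% of all genes), and under loess 1 (0.327% of all genes), which was Trem2. Leaving out YFP+ M gave 21 such genes, leaving out YFP+ FM 5, leaving out YFP- M 4 and leaving out YFP- FM 3.

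Genes whose centred log2(TPM + 1) profile over the 4 libraries lay closest to that of Apoe, among 6440 candidates with a mean of at least 10 TPM, were Id2 (Euclidean distance 0.18), H2-Aa (0.27), Ninj1 (0.37), Nfkbia (0.40) and Lrrc25 (0.46). Id2, an inhibitor of basic helix-loop-helix factors, was at 1189 and 1721 TPM in YFP+ M and FM, against 218 and 313 TPM in YFP- M and FM, the same order of libraries as Apoe. Apoc1 had no such close match. Its nearest genes were the biliverdin reductase Blvrb (1.59), Ifitm3 (1.61), Gpx1 (1.64), the metallothionein Mt1 (1.70) and the lectin Fcna (1.72). Apoe and Apoc1 were themselves 2.62 apart, whereas Apoc2 and Apoc4 were 1.19 apart. With 4 libraries these distances only describe which genes had like values.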

How the data were processed

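Each library has its own deposited table of coverage, FPKM and TPM per gene, per the file headers. Coverage is the authors' mean read signal over a gene, FPKM their value per kilobase and per 1000000 fragments, and TPM the deposited value that sums to 1000000 in every table. The submitters' processing notes name HISAT and the genome builds GRCm38 and mm10. The program that computed abundance is not named there, nor in the other sources used here.

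Where a gene name had several rows (166 of 23337 names, no member among them), the rows were added up. The filter kept 12251 genes reaching 1 TPM in 2 or more libraries. They were tested as log2(TPM + 1), a scale that understates changes of low genes, by limma (version 3.58.1, R 4.3.3) with a variance trend on the mean, p-values adjusted by Benjamini-Hochberg, a threshold of 0.05 and the YFP group alone in the model. The prior weight of the trend came out infinite for TPM as deposited, so those p-values rest on the spread over all genes; it was finite under the 3 rescalings (prior degrees of freedom 6.87 for quantile normalization, 20.1 for median-ratio scaling and 5.56 for loess), whose p-values are therefore moderated differently. Libraries of the same title start were not treated as pairs in the main fit. Their deviations from the group means had a correlation of -0.01 across genes, which cannot decide whether they were paired.

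The members and lists were chosen with earlier results of these data known. From each list the text names the 4 tested genes of largest absolute difference and genes of special role, plus every flanking gene and the 5 genes most like Apoe or Apoc1. All 52 lipoprotein and 45 marker genes had a name in the files, Adgre1 and Chil3 through an older symbol. One listed gene is counted with its list but not reported here. Alternatives were another pseudocount, 2 filters, 3 rescalings, FPKM, the largest row per name, the title start as a block and each library left out, with the tested genes kept. Tables were handled in Python 3.11.15 (pandas 2.3.3, NumPy 2.4.6) and drawn with matplotlib 3.10.9.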

Additional observations from a re-analysis of the deposited data

Results flagged for a closer look

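For 12 of the genes named in the results, the YFP+ minus YFP- difference on the log2(TPM + 1) scale had opposite signs between the M and the FM libraries. The Kupffer cell markers Adgre1 and C6, the endothelial marker Stab2 and the monocyte and neutrophil markers S100a8 and S100a9 also had opposite signs. So did Abcg1 and Msr1 of the lipoprotein lists. None of these genes is counted in the 12, and the share of all tested genes with opposite signs was not computed. Each pair holds 1 library per group, so the difference between pairs was not tested. Among the members this was Apoc4, with 1.30 between the FM and -0.79 between the M libraries, 2.10 apart. Apoc3 was at 0.03 and -1.86 in the same order, 1.89 apart, and Apoa5 at -0.29 and 0.65, -0.95 apart. The receptors Lrp1 (-0.87 between the FM and 1.30 between the M libraries, -2.17 apart) and Scarb1 (-0.53 and 1.90, -2.44 apart) ran the other way from Apoc4. So did Lpl (-1.18 and 0.88, -2.06 apart), Lipa (-3.46 and 0.62, -4.07 apart) and Cyp27a1 (-3.26 and 0.11, -3.36 apart). The flanking genes Clasrp (-1.28 and 0.05, -1.33 apart) and Relb (-1.06 and 0.13, -1.19 apart) did too. Lyz2, whose locus drives Cre, was at -0.20 between the FM and 2.39 between the M libraries, -2.59 apart, and the hepatocyte marker Cps1 at -1.39 and 0.04, -1.43 apart. The median over all tested genes was -2.48 between the FM and -1.01 between the M libraries.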

How the results depend on the processing

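The difference of Apoe moved by more than the spread between replicates under quantile normalization (1.61), median-ratio scaling (4.56), loess (0.66) and FPKM (2.83), that of Apoc1 under median-ratio scaling (6.35), that of Apoc2 under quantile normalization (1.64), median-ratio scaling (2.04), loess (1.70) and FPKM (0.38), and that of Apoc4 under quantile normalization (2.05), median-ratio scaling (2.16) and loess (2.48). With single libraries left out, Apoe ranged from 1.97 to 2.60, Apoc1 from 3.05 to 5.11, Apoc2 from -0.48 to 0.22 and Apoc4 from -0.27 to 0.78. Genes called higher in YFP+ libraries, 64 as deposited, numbered 148 under quantile normalization, 759 under median-ratio scaling, 120 with FPKM, 23 with the title start as a replicate block and 14 to 105 with a library left out. Those called lower, 4834, numbered 3078 with a pseudocount of 0.1, 2902 with a filter at 5 TPM, 205, 790 and 40 under quantile, median-ratio and loess rescaling, 1726 with the block and 865 to 8273 with a library left out. Median differences of all genes were then -0.03, -0.11 and -0.01 under the 3 rescalings. Lipoprotein genes called lower, 14, numbered 9 with the 5 TPM filter, 3, 4 and 1 under the 3 rescalings, 7 with the block and 3 to 21 with a library left out; those called higher numbered 1 under quantile normalization, 12 under median-ratio scaling and 1 with FPKM. Flanking genes called lower ranged from 0 to 1 with a library left out. In the title start comparison, 40 genes were called without a filter, 1 with the 5 TPM filter, 119, 57 and 12 under the 3 rescalings, 24 with FPKM and 0 without the YFP covariate, against 6; libraries could not be left out there, since no residual degrees of freedom remain. Of 53 tested lipoprotein and flanking genes the sign turned for 23 under quantile normalization, 26 under median-ratio scaling and 23 under loess; those called in either fit were Lipc under quantile normalization (0.49) and loess (0.41), and Abcg1 (1.70), Lpl (2.09) and Msr1 (1.96) under median-ratio scaling. The sign also turned for Apoc4 between title starts under the 3 rescalings (0.46, 0.66 and 0.40). The cause of these changes was not tested. Libraries with one title start had uncorrelated deviations from their group means across genes (-0.01). That value cannot decide whether they share an animal, a pool or a sort, and no pairing is read from the block. Depth in reads is unknown, so the counting error of low members such as Apoc4 was not estimated. Apoc4 had a coverage of 14.7 and 22.0 in YFP+ M and FM, and of 46.9 and 4.08 in YFP- M and FM.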
